A study of Mus musculus with 16 samples.

Results

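The genes described here are 6 mouse genes for histone variants, H2afx, H2afz, H2afv, H2afy, H3f3a and H3f3b, measured in single LSK cells. LSK cells are bone marrow cells without lineage markers that carry Sca1 and Kit, a fraction with haematopoietic stem cells and multipotent progenitors. The members were named one by one as entries of the count files, and all 6 were found among 52542 gene entries, of which 22656 had at least 1 molecule in the cells kept. They were chosen by gene name, with earlier results of these data in view and with no threshold on a measured value, so their levels over libraries are given as a description. The 16 libraries form 1 group: bone marrow LSK cells sorted 4 weeks after transplantation into lethally irradiated hosts that carry both CD45.1 and CD45.2, with the strain given as C57BL/6J. The graft was an equal mixture of fetal liver cells lacking both Regnase-1 and Regnase-3 (CD45.2) with control fetal liver cells (CD45.1). The labels name neither the genotype nor the mouse of a library or well, so genotypes were not compared, and each value may be over both donors and any remaining host cells.

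Most histone proteins are made only while DNA is copied, from clustered genes whose mRNAs lack a poly(A) tail. Variant histones come from genes outside those clusters, mostly with polyadenylated mRNAs, and can be placed in chromatin outside replication. H2A.Z, encoded by H2afz (H2A.Z.1) and H2afv (H2A.Z.2), sits beside transcription start sites. H2A.X, encoded by H2afx, is phosphorylated around DNA breaks, and its gene gives both a polyadenylated mRNA and a shorter replication-linked mRNA without a poly(A) tail, which capture of poly(A) ends may miss. MacroH2A1, encoded by H2afy, carries a large additional domain and is abundant in silent chromatin. H3.3 is encoded in identical form by H3f3a and H3f3b and is deposited at active genes and at repeats.

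The members lie on 5 chromosomes of GRCm38, which is the build the submitters name as mm10, and the GENCODE vM21 annotation gives all of them as protein-coding. H2afx is at chr9:44334694-44336077 on the plus strand and H2afz at chr3:137864487-137866922 on the plus strand. H2afv at chr11:6427229-6444443 and H3f3b at chr11:116021912-116027962 are both on the minus strand. H2afy at chr13:56073619-56136361 and H3f3a at chr1:180800832-180813943 are on the minus strand too. The coding sequences of H2afz and H2afv, 384 bases each, were identical at 79.2% of positions, and those of H3f3a and H3f3b, 408 bases each, at 76.7%. RefSeq promoters, 250 bases before to 50 after the start in GRCm38.p6, were matched for 5 of the 6 members, all but H2afx. They were searched on both strands for the CCAAT box, for TTTGAA or TTTAAA (letters of the CHR element) and for TTTCCCGC, TTTCGCGC or TTTGGCGC (letters of E2F sites). The 2 H2A.Z promoters and the 2 H3.3 promoters are shown because H2afz, H2afv and H3f3b were higher together in cells with mitotic transcripts, while for H3f3a no difference was called. Capitals mark CCAAT or its reverse complement ATTGG, and in H2afv also TTCAAA, the reverse complement of TTTGAA. Each is read 5′ to 3′ on the strand of its gene. They lie at chr3:137864237-137864536 (H2afz, plus strand), chr11:6444394-6444693 (H2afv, minus strand), chr11:116024455-116024754 (H3f3b, minus strand) and chr1:180813556-180813855 (H3f3a, minus strand).
H2afz: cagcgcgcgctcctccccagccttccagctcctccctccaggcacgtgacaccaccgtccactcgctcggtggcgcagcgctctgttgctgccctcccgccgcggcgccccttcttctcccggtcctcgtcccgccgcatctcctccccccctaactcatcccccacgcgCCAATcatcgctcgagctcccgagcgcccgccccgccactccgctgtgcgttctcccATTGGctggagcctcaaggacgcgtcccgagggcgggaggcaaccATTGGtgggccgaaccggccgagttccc
H2afv: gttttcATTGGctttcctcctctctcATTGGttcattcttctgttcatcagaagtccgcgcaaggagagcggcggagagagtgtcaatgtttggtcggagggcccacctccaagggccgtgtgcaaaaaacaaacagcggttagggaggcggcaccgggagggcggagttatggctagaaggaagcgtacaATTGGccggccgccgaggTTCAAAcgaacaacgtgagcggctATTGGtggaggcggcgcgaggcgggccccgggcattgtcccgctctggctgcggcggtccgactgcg
H3f3b: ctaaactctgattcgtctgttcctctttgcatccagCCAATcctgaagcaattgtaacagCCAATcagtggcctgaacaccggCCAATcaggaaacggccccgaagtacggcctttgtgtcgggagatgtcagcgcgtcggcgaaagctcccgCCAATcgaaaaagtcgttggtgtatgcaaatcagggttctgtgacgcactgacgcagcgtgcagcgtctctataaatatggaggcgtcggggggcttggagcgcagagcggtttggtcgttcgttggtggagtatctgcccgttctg
H3f3a: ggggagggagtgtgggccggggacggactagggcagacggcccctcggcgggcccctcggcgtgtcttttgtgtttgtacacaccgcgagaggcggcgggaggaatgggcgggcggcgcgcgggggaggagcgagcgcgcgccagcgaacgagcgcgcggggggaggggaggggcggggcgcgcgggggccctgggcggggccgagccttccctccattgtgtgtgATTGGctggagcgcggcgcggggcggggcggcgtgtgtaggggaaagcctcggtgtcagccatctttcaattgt

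CCAAT occurred 3 times in the H2afz window, 4 times in that of H2afv, 4 times in that of H3f3b and 1 time in that of H3f3a. Of 32851 RefSeq windows of 300 bases, 37.4% held CCAAT at least 1 time, 11.7% at least 2 times and 3.37% at least 3 times. The H2afy window had no match to CCAAT. The CHR letters were found in the H2afv window, 1 time, and in 27.6% of all windows. The E2F letters, in 1.85% of all windows, were in none of the 5. The printed promoters were chosen with results of these data known, and none was matched for H2afx. A link between these letters and the levels of the genes was not tested. The H3f3a, H3f3b and H2afy windows lie inside the gene spans given above, so these RefSeq starts are not the outermost starts of the GENCODE annotation.

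Cells were profiled by MARS-seq, a plate method that tags each captured 3′ end with a unique molecular identifier (UMI), so that a UMI stands for 1 molecule. Kept cells are wells with at least 500 UMIs, under 20% of them mitochondrial, and not listed as empty. Between 295 and 345 cells per library were kept, 5157 in all, and no well name occurred in more than 1 library. Libraries held 521435 to 822534 UMIs, and the median kept cell of a library held 1146 to 1993. Levels are given in CPM, the usual scale on which the UMIs of all genes in a library, or in a class of its cells, sum to the same fixed total. Kit and Ly6a, the gene of Sca1, had medians of 179 and 228 CPM over libraries, and Cd34 had 602. Genes of mature B cells, T and NK cells and neutrophils were near 0, with medians of 2.19, 1.67 and 4.93 CPM, while 7 erythroid genes together had 149 and were at 383 in the highest library. The well table lists 6 libraries in sequencing batch SB343 and 9 in SB341, and library 1 is not in it.

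H2afy was the most abundant member, with 1876 CPM in the lowest library, 2031 in the median and 2188 in the highest. No library of any other member reached that range. H3f3b followed with 530, 702 and 840 CPM (lowest, median, highest) and H3f3a with 280.5, 674 and 838. H3f3b was above H3f3a in 7 of 16 libraries. These were the 6 libraries of batch SB343 and library 4 of SB341, so the order of these neighbours as counted went with the batch. Of these, only library 15 kept that order once entries sharing sequence with H3f3a were added to it, as described below. H2afz had 233, 442 and 529.9 CPM, below H3f3a in all 16 libraries. H2afv had 246, 309 and 372, below H2afz in 10 of 16 libraries. H2afx was lowest, with 149.97, 253 and 305 CPM, below H2afv in all 16 libraries. Because MARS-seq reads 3′ ends, these levels are molecules captured and not reads per length. The 6 genes together made up 3669 to 4698 CPM, of which H2afy took 43.5% to 55.4%.

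In single cells, 81.9% of kept cells held a UMI of H2afy, 63.4% of H3f3a, 61.0% of H3f3b, 41.5% of H2afz, 36.6% of H2afv and 27.1% of H2afx. The Wilson 95% intervals were 80.8 to 82.9% for H2afy and 25.9 to 28.3% for H2afx, for counting error only. Wells listed as empty, 60 in all, held 2 UMIs of H2afy, 1 of H3f3a and none of the others. When 3840 cells with at least 1000 UMIs were thinned to 1000 each, H2afy averaged 2.003 UMIs per cell and H2afx 0.228. The variance over the mean was 1.68 for H2afy, 1.27 for H2afx, 1.23 for H2afz, 1.19 for H2afv, 1.14 for H3f3b and 1.10 for H3f3a. Counting alone gives a value near 1. The means differ between members, so these ratios do not rank the members by variability between cells.

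**Figure D1:**
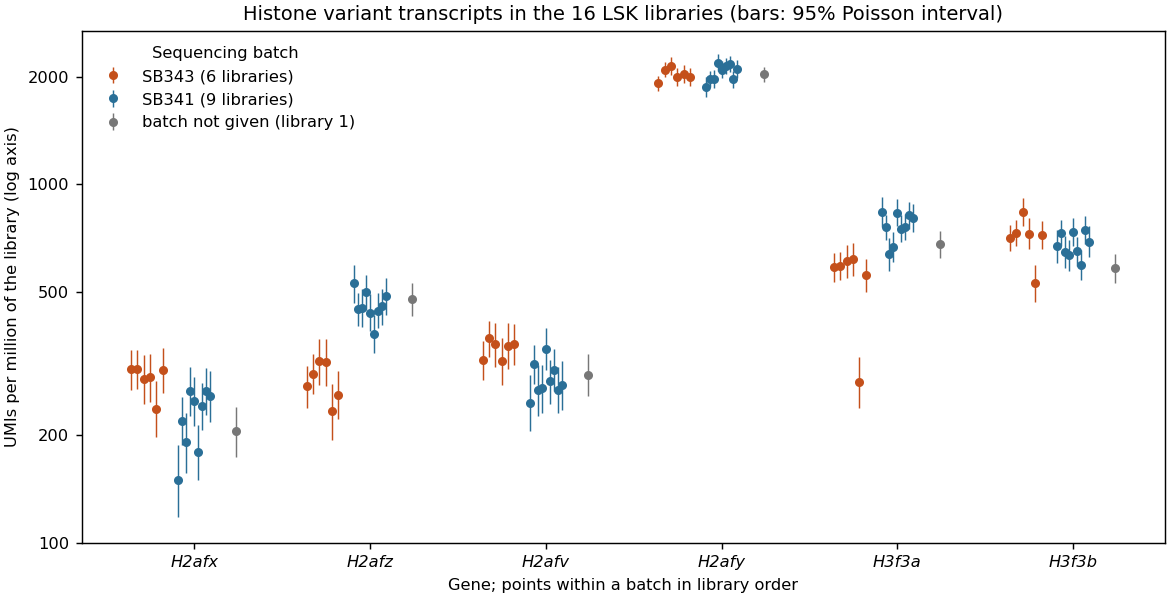
Each point is the level of 1 member in 1 of the 16 libraries, in CPM on a log axis, with the exact 95% Poisson interval, by sequencing batch. H2afz lies lower in all 6 SB343 libraries than in the 9 SB341 libraries, H3f3a is lowest at 280.5 in library 15, and H2afy lies near 2000 throughout.

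Libraries differed most in H3f3a and H2afz and least in H2afy. Relative to Poisson counting, the chi-square over libraries per degree of freedom was 17.2 for H3f3a, 14.8 for H2afz, 5.78 for H2afx, 5.18 for H3f3b, 3.17 for H2afv and 2.73 for H2afy. Much of this followed the sequencing batch for H2afz. Its levels were 233, 285 and 321 CPM (lowest, median, highest) in the 6 SB343 libraries, against 383, 453 and 529.9 in the 9 SB341 libraries, and the batches did not overlap. H3f3a had 280.5, 590 and 618 CPM in SB343 libraries, against 639, 762 and 838 in SB341 libraries, again without overlap. Library 1, with no batch given, held 478 CPM of H2afz and 680 of H3f3a, both within the SB341 range. Over library sums, edgeR's quasi-likelihood test called both genes lower in SB343 than in SB341, by a log2 fold change of -0.78 ± 0.10 for H2afz (SE; adjusted p = 4.81e-07) and -0.58 ± 0.12 for H3f3a (adjusted p = 0.00104). Of 8017 genes tested, 12.6% were called, so the 2 of 6 members stand among many genes that differ between batches. What else differs between the 2 sets of plates is not given, so the batch cannot be told apart from it.

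H2afx and H2afv had means of 287 ± 26.3 and 348 ± 20.5 CPM in SB343 libraries (SD, n = 6), against 224 ± 41.6 and 286 ± 30.9 in SB341 libraries (SD, n = 9). Neither difference was called (edgeR adjusted p = 0.0936 and 0.165). The 2 H2A.Z genes thus stood in opposite order: H2afv was above H2afz in all 6 SB343 libraries, and H2afz was above H2afv in the other 10. H2afy and H3f3b had intervals of -0.23 to 0.04 and -0.20 to 0.16 for the log2 fold change between batches.

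H3f3a is the member whose counts are least certain. Library 15 held 280.5 CPM of it, with a Poisson interval of 237 to 329.7, while the lowest of the other libraries held 558. H2afz and H3f3b were also lowest in library 15, at 233 and 530.5 CPM. Without library 15 the log2 fold change of H3f3a between batches was -0.45 ± 0.09 (edgeR adjusted p = 0.000625). In the last 500 bases of the shorter H3f3a transcript, of 724 bases, 377 of 461 windows of 40 bases also occur in transcripts of 47 other annotated genes, among them the processed pseudogenes H3f3a-ps2, H3f3a-ps1 and H3f3c. No window was shared at the ends of the longer H3f3a transcript or of the transcripts checked for the other 5 members. Only transcripts with the longest coding sequence of their gene were checked. Of those 47 genes, 30 were in the files, with 4830 UMIs, 68.2% of the number counted for H3f3a. They had 101 to 272 CPM together in SB343 libraries, against 463 to 786 CPM in SB341 libraries. H3f3a with these entries added held 381.6 CPM in library 15 and at least 750.5 in every other library. In SB343 libraries 11, 12, 13, 14 and 16 these sums were 792, 854, 843.5, 889 and 750.5 CPM. H3f3b was below them there, at 711, 732, 840.0, 729 and 724 CPM. In library 4 of SB341 the sum was 1298 CPM against 648 of H3f3b. With the entries added, H3f3b thus stayed above H3f3a only in library 15. Genes annotated on the opposite strand overlap H2afx (Gm44335), H2afy (Gm47071) and H3f3a (Gm17275 and H3f3aos), and no source used here says whether counting used the strand.

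To describe the members over the cell cycle, cells with at least 1000 UMIs were placed by 3 lists of other genes, none a member. The G2M list holds mitotic genes such as Top2a and Mki67, and the G1S list replication genes such as the Mcm helicase genes. The cycle-histone list holds the clustered histone genes of replication. Their mRNAs lack a poly(A) tail, as stated above, so capture of poly(A) ends may miss many of them. In each library the 20% of cells with most list UMIs after thinning were called high. The cut of the cycle-histone list ranged from 2 UMIs (library 2) to 5 (library 12), with 20 cells at the cut value in each. That class therefore rests on few UMIs per cell. Cells high for more than 1 list, 461 in all, entered no class. The cycle-low class is the 20% with fewest UMIs of all 3 lists. There were 459 G2M-high, 551 G1S-high, 319 cycle-histone-high and 761 cycle-low cells, with all 16 libraries in each class. Each class was summed per library and compared with cycle-low sums of the same library by edgeR's quasi-likelihood test with the library as block. CPM and the numbers of libraries higher or lower use plain totals of a sum. Fold changes use sums rescaled by edgeR (TMM), so the 2 can differ where fold changes are small. Because cells were placed by their own transcripts, the p-values are smaller than they should be, by how much is not known. What they measure is the spread between libraries, and libraries may come from the same mice. G2M-high, G1S-high and cycle-histone-high cells were also deeper, at medians of 2543, 2104 and 2719 UMIs against 1460 in cycle-low cells. Stem cell genes were lower in them, at medians of 732, 687 and 553 CPM against 1258. The part of depth and of stem cell content in the differences was not tested, apart from the thinned counts given below.

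Cells rich in mitotic transcripts had more H2afx, H2afz, H2afv and H3f3b than cycle-low cells, and no difference was called for H2afy and H3f3a. All 6 members were tested, and 4 were called higher and none lower, where 22.3% of 1172 tested genes were called (99 higher and 162 lower, and with DESeq2 197 higher and 149 lower). H2afx, the gene of the DNA damage histone H2A.X, had 317, 450.3 and 668 CPM (lowest, median, highest library) in G2M-high cells, against 0, 74.0 and 179 in cycle-low cells. The classes did not overlap. Its log2 fold change was 2.56 ± 0.15 (SE; adjusted p = 2.14e-25), higher in 16 of 16 libraries, a 5.91-fold difference. The filter asks for at least 15 sums over its minimum. H2afx was over it in 16 G2M-high and 1 cycle-low sums, and H2afz, described next, in 16 and 10, so both passed through the class where they are high and the filter in part set that they would differ. With no filter their log2 fold changes were 2.60 and 1.29, each called. After thinning to 1000 UMIs, 35.9% of G2M-high cells held an H2afx UMI, with a Wilson interval of 31.7 to 40.4%, against 6.31% of cycle-low cells, with an interval of 4.79 to 8.26%.

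H2afz had 245, 471 and 638 CPM (lowest, median, highest) in G2M-high cells, against 29.3, 196 and 361 in cycle-low cells. The ranges overlapped, but the G2M-high sum was higher in 16 of 16 libraries, with a log2 fold change of 1.27 ± 0.13 (SE; adjusted p = 2.48e-13). H2afv, its close relative, had 219, 431 and 587 CPM in G2M-high cells, against 139, 195 and 308 in cycle-low cells. It was higher in 15 of 16 libraries, by 0.96 ± 0.11 (log2, SE; adjusted p = 1.47e-10). H3f3b had 496, 723 and 1023 CPM in G2M-high cells, against 411, 575 and 830 in cycle-low cells, and was higher in 13 of 16 libraries, by 0.29 ± 0.09 (log2, SE; adjusted p = 0.0071). That call was not made without the library block, with only the top and lowest 10% of cells, or in SB343 alone, where the log2 fold change was 0.19 (adjusted p = 0.4). The other gene for the same H3.3 protein, H3f3a, had a 95% interval of -0.15 to 0.20 for its log2 fold change, and H2afy one of -0.09 to 0.11. Within SB343 the fold changes of H2afx, H2afz and H2afv were 2.55, 1.42 and 0.98 (log2), and within SB341 they were 2.69, 1.24 and 0.92, each called.

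**Figure D2:**
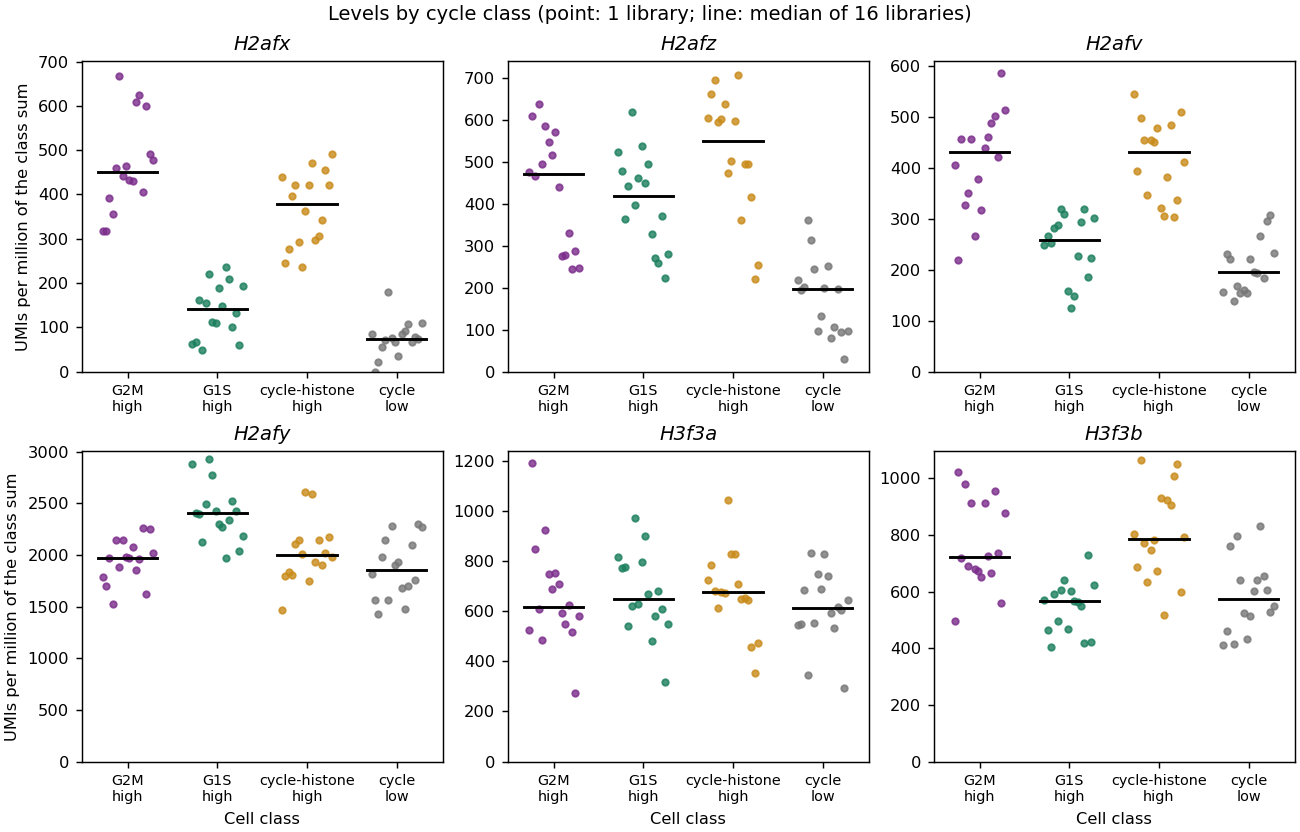
Levels of the 6 members in the summed UMIs of each cycle class, in CPM, with 1 point per library and the median of 16 libraries as a line. H2afx in G2M-high sums (317 to 668) does not overlap cycle-low sums (0 to 179), H2afz is raised in all 3 high classes, and H2afy is highest in G1S-high sums.

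Cells rich in replication-licensing and DNA synthesis transcripts showed another order. In G1S-high cells H2afz and H2afy were called higher and H3f3b lower, 3 of the 5 members tested, where 39.3% of 1209 genes were called, a background that the count of members should be read against. H2afz had 224, 420 and 619 CPM (lowest, median, highest) in G1S-high cells, against 29.3, 196 and 361 in cycle-low cells. It was higher in 16 of 16 libraries, by 1.12 ± 0.13 (log2, SE; adjusted p = 1.7e-10), and by 1.16 with no filter, which it again passed through its high class. H2afy, for macroH2A1, had 1973, 2404 and 2933 CPM in G1S-high cells, against 1425, 1860 and 2301 in cycle-low cells. Its log2 fold change was 0.24 ± 0.05 (SE; adjusted p = 0.000107), with 14 of 16 libraries higher. In SB343 alone it was 0.12 ± 0.07 and not called (adjusted p = 0.251), and in SB341 0.32 ± 0.07 (adjusted p = 0.000133).

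H3f3b had 403, 566 and 729 CPM in G1S-high cells, against 411, 575 and 830 in cycle-low cells, and was higher in 8 and lower in 8 of the 16 libraries. The log2 fold change of -0.23 ± 0.09 (edgeR adjusted p = 0.0394) was not called with DESeq2, with no filter, without the library block, in either batch alone, after thinning, with only the top and lowest 10% of cells (-0.12), with cells high for several lists kept (-0.04), or without any 1 of libraries 3, 5, 11, 12, 13 and 15 (adjusted p of 0.0647 to 0.158 without them). H2afv, with 125, 259 and 320 CPM in G1S-high cells against 139, 195 and 308 in cycle-low cells, had an interval of -0.12 to 0.43, and H3f3a one of -0.16 to 0.16. H2afx did not pass the filter. It had 49.2, 140 and 236 CPM in G1S-high cells, against 0, 74.0 and 179 in cycle-low cells, and with no filter its log2 fold change was 0.79 ± 0.22 (edgeR adjusted p = 0.0155).

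Cycle-histone-high cells had more of the same 4 members as G2M-high cells, in comparisons that share the cycle-low sums. Cycle-histone-high sums also held more of the G2M list, at a median of 7165 CPM against 1253 in cycle-low sums. For the G1S list the medians were 5813 and 2108 CPM. The part of these transcripts in the differences was not tested. All 6 members were tested and 4 were called higher and none lower, where 35.2% of 990 genes were called. H2afx had 237, 379 and 491 CPM (lowest, median, highest) in cycle-histone-high cells, against 0, 74.0 and 179 in cycle-low cells, without overlap. Its log2 fold change was 2.21 ± 0.18 (SE; adjusted p = 1.49e-17), and 2.12 with no filter. H2afz had 222, 549 and 707 CPM, against 29.3, 196 and 361 in cycle-low cells, a log2 fold change of 1.54 ± 0.13 (SE; adjusted p = 6.19e-17), and 1.45 with no filter. Both genes passed the filter through their high class, so the count of 4 rests in part on it. H2afv had 304, 431 and 545 CPM, against 139, 195 and 308 in cycle-low cells, a log2 fold change of 0.98 ± 0.13 (SE; adjusted p = 3.61e-09). For H3f3b, 519, 787 and 1063 CPM in cycle-histone-high cells stood against 411, 575 and 830 in cycle-low cells, with a log2 fold change of 0.41 ± 0.09 (SE; adjusted p = 8.48e-05). H2afx, H2afz and H2afv were higher in 16 of 16 libraries and H3f3b in 14. H2afy and H3f3a were not called, with intervals of -0.05 to 0.17 and -0.09 to 0.25.

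The G2M-high and G1S-high classes were also set against each other. H2afx, H2afv and H3f3b were higher and H2afy lower in G2M-high cells, 4 of 6 members, where 26.3% of 1315 genes were called. H2afx had means of 468 ± 107 CPM in G2M-high cells and 138 ± 61.1 in G1S-high cells (SD, n = 16 libraries), without overlap and with a log2 fold change of 1.79 ± 0.12 (SE; edgeR adjusted p = 5.79e-18). It was over the minimum of the filter in 16 G2M-high and 9 G1S-high sums, so here too it passed through the class where it is high, and with no filter the log2 fold change was 1.75. For H2afv the means were 412 ± 97.2 and 247 ± 63.3 CPM (G2M-high, then G1S-high), and the log2 fold change was 0.79 ± 0.11 (SE; edgeR adjusted p = 1.8e-07). H3f3b, at means of 766 ± 157 in G2M-high and 545 ± 91.1 in G1S-high cells, differed by 0.50 ± 0.08 (log2, SE; edgeR adjusted p = 3.41e-06), higher in 15 of 16 libraries. H2afy differed by -0.25 ± 0.05 (log2, SE; edgeR adjusted p = 5.93e-05), lower in 15 of 16, but was not called in SB343 alone (-0.10; adjusted p = 0.461). H2afz had an interval of -0.04 to 0.33, so the pair H2afz and H2afv did not share 1 pattern: H2afv was raised in G2M-high over G1S-high cells, and for H2afz no difference was called.

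The levels were also taken over the number of list UMIs, without classes. Among cells with 0, 1, 2 to 3, 4 to 7, 8 to 15 and at least 16 G2M UMIs per 1000, H2afx averaged 69.7, 106, 112, 239, 413 and 529.7 CPM over 16 libraries. The SD over libraries was 36.3, 46.6 and 30.7 in the 3 lowest bins, 70.0 in the bin of 4 to 7 and 140.0 in the highest. H2afz averaged 209, 272, 304, 493, 525 and 509.9 CPM in the same bins and was level above 4 G2M UMIs. H2afv averaged 200.5, 223, 220.2, 323, 416 and 458. H3f3b averaged 530.1 CPM with 0 G2M UMIs and 799 with 8 to 15, and H3f3a 647 and 709. With at least 16 G2M UMIs both were lower again, at 742 for H3f3b and 680 for H3f3a (SD 183 and 273). With G1S UMIs the order of H2afy was upward, with 1734 CPM at 0 and 2288 at 8 to 15 (SD 423 and 243). H2afx averaged 218, 275, 305, 273 and 194 CPM at 0, 1, 2 to 3, 4 to 7 and 8 to 15 G1S UMIs (SD of 58.7 to 137), and H2afv 333, 346, 326, 332 and 289.8. Over these bins neither gene was higher at 8 to 15 G1S UMIs than at 0, whereas the G1S-high medians of both were above the cycle-low medians. The bins also hold cells with G2M and cycle-histone UMIs, and cycle-low cells have few of any list.

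**Figure D3:**
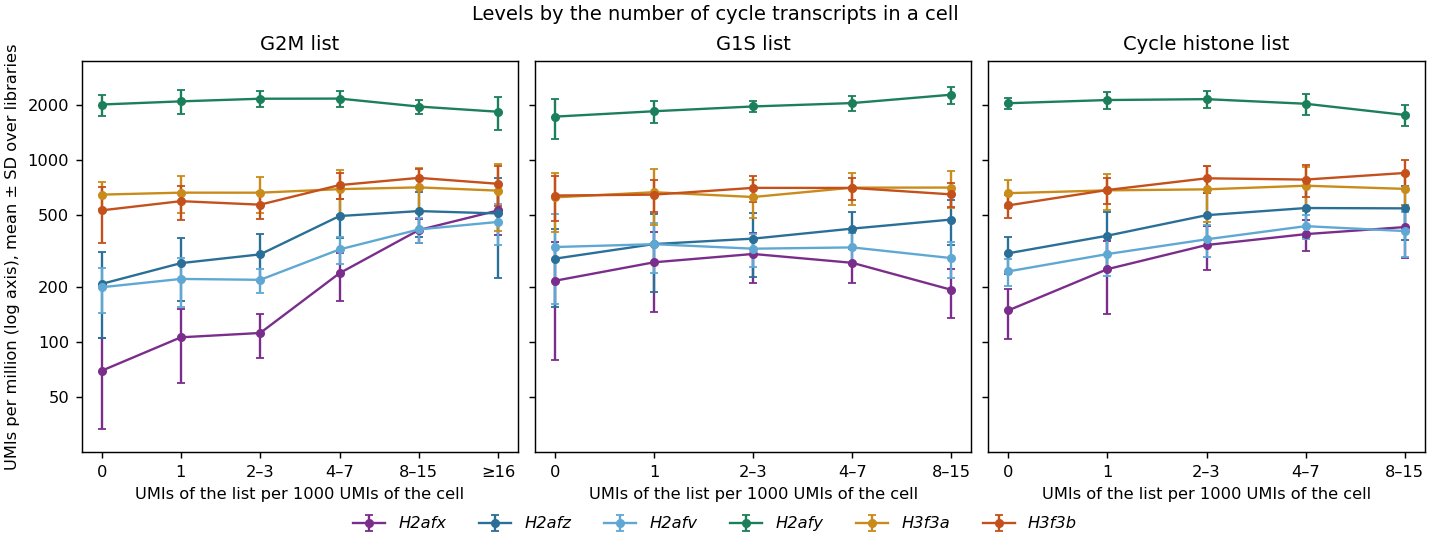
Mean level of each member (CPM, log axis) in cells with increasing numbers of list UMIs per 1000 UMIs of the cell, with the SD over libraries as bars, for the 3 lists. Bins with fewer than 10 libraries are not drawn, H2afx climbs most with G2M UMIs, and H3f3a is nearly flat in every panel.

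Within each pair of genes for the same or nearly the same protein, the mix of transcripts was set against cycle-low cells. H2afz made up 61.5% ± 10.7 of H2afz and H2afv UMIs in G1S-high cells, against 44.3% ± 17.01 in cycle-low cells (SD, n = 16), higher in 13 of 16 libraries. A two-sided sign-flip permutation test over libraries gave an adjusted p of 0.0146 over the 12 pair tests made. In cycle-histone-high cells it made up 54.6% ± 10.04, against 44.3% ± 17.01 in cycle-low cells (permutation adjusted p = 0.0241), and in G2M-high cells 50.8% ± 13.5 (permutation adjusted p = 0.155). H3f3b made up 54.2% ± 6.63 of H3f3a and H3f3b UMIs in G2M-high cells and 54.5% ± 8.04 in cycle-histone-high cells, against 49.1% ± 7.38 in cycle-low cells (permutation adjusted p = 0.0241 for both). In G1S-high cells it made up 45.4% ± 7.49 against 49.1% ± 7.38 in cycle-low cells (permutation adjusted p = 0.183). None of these shares was called after thinning, where the smallest adjusted p was 0.0861 for H2afz in G1S-high cells. The shares of both pairs pool sequencing batches in which the genes of a pair, as counted, mostly stood in opposite order. Shares were not tested within a batch. The H3.3 shares also carry the uncertainty of the H3f3a counts.

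Lineage was the second axis. Kept cells with UMIs of at least 2 genes of 1 lineage list, and fewer than 2 of each of the other 3, were called granule-gated (granule proteases such as Mpo and Elane), lymphoid-gated (such as Dntt and Il7r), megery-gated (megakaryocyte and erythroid genes such as Pf4 and Klf1) or stem-gated (such as Mecom and Procr). These gave 559, 608, 289 and 645 cells. Another 1677 cells held at least 2 genes of 2 or more lists, and 1379 held fewer than 2 genes of every list. A gate of few UMIs is a range of cells and not a cell type. Granule-gated, lymphoid-gated and megery-gated cells had medians of 1678, 1378 and 1582 UMIs, against 1375 in stem-gated cells. Erythroid globin and related genes were at medians of 101, 77.7 and 72.9 CPM, against 347 in stem-gated cells, and reached 4933 in 1 megery-gated sum. Their part in the result below was not tested.

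Of the 6 members, H2afy alone was called between lineage gates, in all 3 comparisons. It had 1686, 2285 and 2881 CPM (lowest, median, highest library) in granule-gated cells, against 1046, 1455 and 1966 in stem-gated cells. It was higher in 15 of 16 libraries, with a log2 fold change of 0.61 ± 0.06 (SE; edgeR adjusted p = 7.34e-14), the 1 member called of 6 tested, where 7.62% of 761 genes were called. In lymphoid-gated cells it had 2160, 2654 and 3410 CPM, against 1046, 1455 and 1966 in stem-gated cells, and the 2 classes did not overlap. The log2 fold change was 0.84 ± 0.06 (SE; edgeR adjusted p = 1.97e-20), higher in 16 of 16 libraries, again 1 of 6 members tested, where 7.69% of 741 genes were called (34 higher and 23 lower, and with DESeq2 28 higher and 34 lower). In megery-gated cells it was lower, with 369, 763 and 1467 CPM against 1046, 1455 and 1966 in stem-gated cells. There the log2 fold change was -0.92 ± 0.10 (SE; edgeR adjusted p = 1.16e-11), lower in 15 of 16 libraries, 1 of 5 members tested, where 9.58% of 543 genes were called (28 higher and 24 lower, with DESeq2 22 higher and 44 lower, and with no filter 13 higher and 117 lower). These 3 comparisons share the stem-gated sums.

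**Figure D4:**
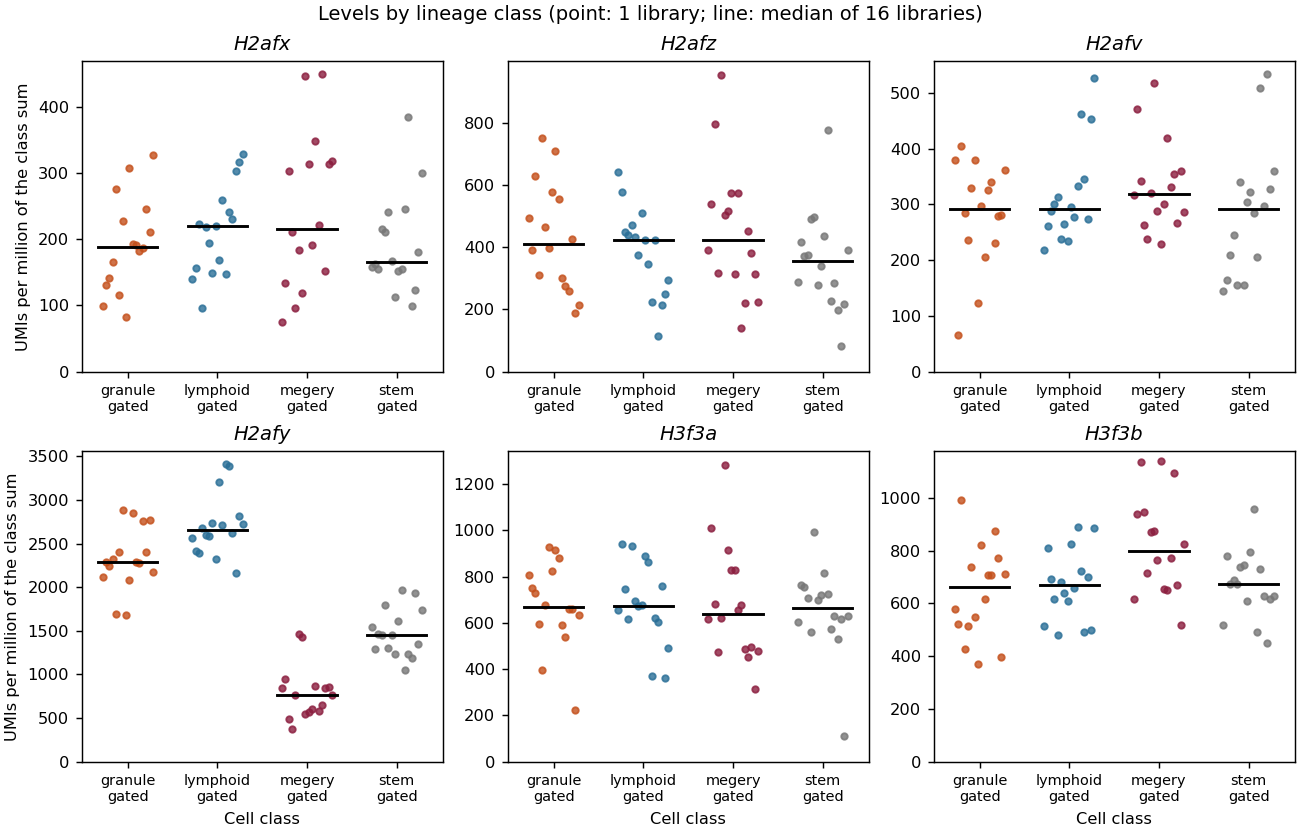
Levels of the 6 members in the summed UMIs of each lineage gate, in CPM, with 1 point per library and the median of 16 libraries as a line. H2afy medians are 2285 in granule-gated, 2654 in lymphoid-gated, 763 in megery-gated and 1455 in stem-gated sums, while the gates overlap widely for the other members.

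The order of H2afy over the gates was therefore lymphoid-gated, granule-gated, stem-gated, megery-gated. Between the first pair, lymphoid-gated against granule-gated cells, the log2 fold change was 0.25 ± 0.06 (SE; edgeR adjusted p = 0.0035), higher in 12 of 16 libraries, 1 of 6 members, where 3.32% of 844 genes were called (16 higher and 12 lower, and with DESeq2 21 higher and 9 lower). That call was not made in 7 of the alternatives, among them each batch alone (0.25 in SB343 and 0.21 in SB341), so these neighbours are not clearly apart. The other steps were found in both batches. Against stem-gated cells the log2 fold changes were 0.79, 1.04 and -0.91 in SB343 (granule-gated, lymphoid-gated, megery-gated) and 0.53, 0.77 and -0.94 in SB341, each called. Since 14.97 to 18.1% of the granule-gated, lymphoid-gated and megery-gated cells and 9.30% of stem-gated cells were high for the G1S list, in which H2afy is also higher, the comparisons were repeated in cells with at least 1000 UMIs that were high for no cycle list. These shares are of all cells of a gate, and cells under 1000 UMIs could not be high. With the depth minimum alone the log2 fold changes of H2afy were 0.58, 0.78 and -1.003 (granule-gated, lymphoid-gated, megery-gated). With both conditions they were 0.59 ± 0.09, 0.85 ± 0.09 and -0.79 ± 0.15 (SE; edgeR adjusted p = 1.36e-08, 2.68e-13 and 0.000161), the last over 14 libraries. After thinning, 87.8% of lymphoid-gated and 49.1% of megery-gated cells held an H2afy UMI, against 66.3% of stem-gated cells (Wilson intervals of 84.5 to 90.6%, 42.6 to 55.6% and 61.8 to 70.5%).

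For the other members the gates gave intervals rather than calls. The closest was H3f3b in megery-gated cells, with 516, 800.4 and 1140 CPM against 451, 675 and 957 in stem-gated cells, higher in 14 of 16 libraries, by 0.28 ± 0.10 (log2, SE; edgeR adjusted p = 0.0639). With DESeq2 and with no filter its adjusted p was 0.642 and 0.983. H2afz in the same comparison had an interval of 0.03 to 0.65 (edgeR adjusted p = 0.152) and H2afv one of -0.08 to 0.62. In lymphoid-gated and granule-gated cells the intervals of H3f3a were -0.16 to 0.21 and -0.19 to 0.18. H2afx had intervals of -0.45 to 0.27 in granule-gated and -0.26 to 0.42 in lymphoid-gated cells, higher in 8 and 9 of 16 libraries. It did not pass the filter in the megery-gated comparison, where it was higher in 9 of 16 libraries. Its medians were 189, 220 and 216 CPM in granule-gated, lymphoid-gated and megery-gated cells, against 165 in stem-gated cells.

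**Figure D5:**
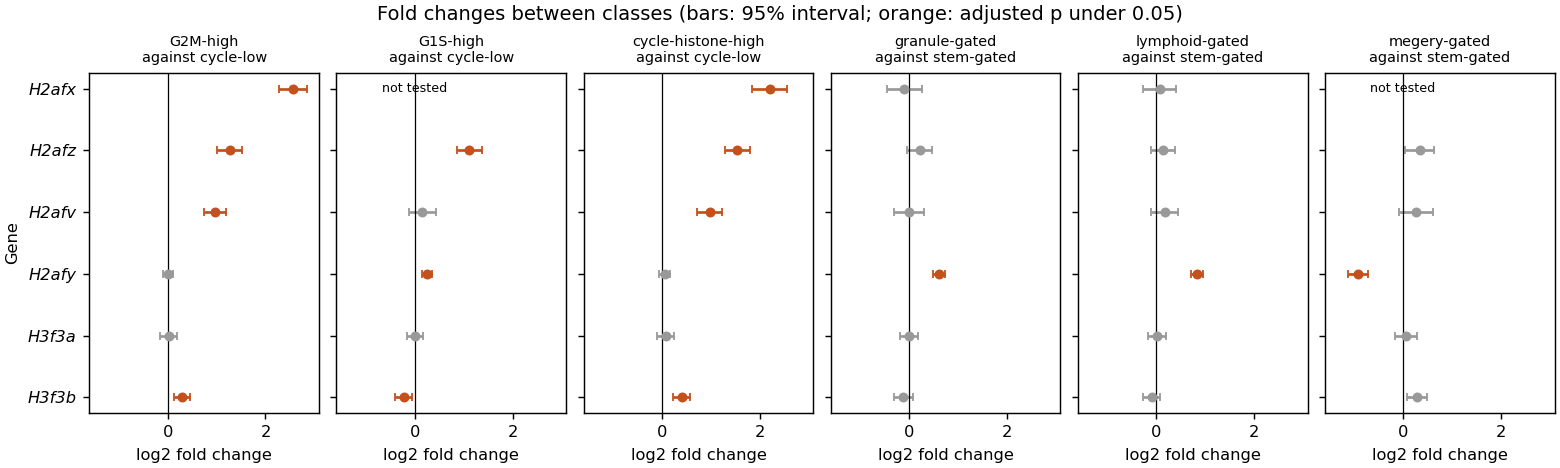
Log2 fold changes of the 6 members in the 3 cycle and 3 lineage comparisons, with 95% intervals, in orange where the adjusted p over all genes tested was under 0.05. H2afx, H2afz and H2afv lead the G2M-high and cycle-histone-high panels, H2afy is the member called in each lineage panel, and H2afx was not tested in 2 panels.

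Factors that handle these histones were followed over the same classes. Of 22 H3.3 chaperones and linked factors, 9 were called higher and none lower of 11 tested in G1S-high against cycle-low cells, with a median log2 fold change of 0.55 where that of all genes was -0.06 and 39.3% of all genes were called in either direction. The counts were 7 of 8 in cycle-histone-high cells (median 0.49, all genes -0.03, 35.2% of all genes called) and 3 of 10 in G2M-high cells (median 0.05, all genes -0.04, 22.3% called), the last near its background. All but Npm1 and Rbbp7 of the context genes named here and below passed the filter only with the sums of their high class, so that they would differ was in part set by it, and the counts and medians support nothing by themselves. Dek, which binds H3.3 and chromatin, had medians of 482 CPM in G1S-high and 222 in cycle-low cells, a log2 fold change of 1.02 ± 0.13 (SE; edgeR adjusted p = 5.12e-10). Dnajc9, a histone chaperone, differed by 1.04 ± 0.19 and Ssrp1, a subunit of FACT, by 0.64 ± 0.14 (log2, SE; edgeR adjusted p = 5.25e-06 and 0.000176). In cycle-histone-high cells the largest were Dek at 1.33, Ssrp1 at 0.76 and Rbbp7 at 0.62, and in G2M-high cells Dnajc9 at 0.58, Dek at 0.56 and Npm1, a nucleolar chaperone, at 0.14 (log2). In the lineage gates 6 to 8 were tested and none was called.

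Among 25 factors for H2A.Z, Anp32e, a chaperone that removes H2A.Z, was the one called in each cycle comparison, of 2, 1 and 1 tested. Its medians were 259, 165 and 236 CPM in G2M-high, G1S-high and cycle-histone-high cells, against 96.9 in cycle-low cells, with log2 fold changes of 1.34, 0.61 and 1.21. Of 13 other variant genes, 2 were tested and Cenpa, the histone H3 of centromeres, was called, with a median of 494 CPM in G2M-high against 33.9 in cycle-low cells, a log2 fold change of 3.43 ± 0.19 (SE). Cenpa was over the minimum of the filter in 16 G2M-high and 0 cycle-low sums. H2afj, H3f3c, H2afy2 and H2afy3 held 2067, 70, 68 and 2 UMIs in all kept cells. Among 20 genes for H2A.X signalling, 1 was tested, Baz1b, a kinase that phosphorylates H2A.X, with medians of 175 CPM in G1S-high and 82.6 in cycle-low cells. It was over the minimum in 15 G1S-high and 6 cycle-low sums and was tested in no other comparison with cycle-low cells. Of 13 silencing genes linked to macroH2A, 3 of 6 were higher in G2M-high, 3 of 5 in G1S-high and 2 of 4 in cycle-histone-high cells, and none lower, where 22.3%, 39.3% and 35.2% of all genes were called. Their median log2 fold changes were 0.58, 0.50 and 0.48, against -0.04, -0.06 and -0.03 for all genes. Ezh2, the Polycomb methyltransferase, differed by 1.24 and 1.35 (log2) in G2M-high and G1S-high cells. Cbx5, which encodes the heterochromatin protein HP1 alpha, differed by 0.93, 1.33 and 1.46 in G2M-high, G1S-high and cycle-histone-high cells, Lbr by 0.79 and 0.63 in G2M-high and cycle-histone-high cells, and Parp1 by 0.50 in G1S-high cells (log2). In the lineage gates at most 1 of these 13 genes was tested and none was called.

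The genes most like each member were taken over the 64 class sums of the cycle comparisons (4 classes in 16 libraries), by Pearson's r of log2(CPM + 10) centred within each library, among 957 genes or 958 for H2afx. Sums share their library and class depth, so r is a description. H2afx was most like Nucks1 (r = 0.87), then Hmgb2, Tubb5, Jpt1 and Tmpo. H2afz was most like Tuba1b (0.90) and Tubb5 (0.89), tubulin genes, then Hmgb2, the processed pseudogene Gm11223 and Banf1. For H2afv the order was Tubb5 (0.77), Hmgb2, Tmpo, Jpt1 and the H2A.Z chaperone gene Anp32e (0.72). H3f3b was most like Anp32e (0.55), followed by Hmgb2, Jpt1, H2afv and Tubb5. H2afy had other neighbours: Nap1l1 (0.61), a histone chaperone gene, C1qbp, Dctpp1, Npm1 and Atp5b. H3f3a had the lowest values, with Psma6 at 0.50, then the processed pseudogene Gm8524, Eif3b, the processed pseudogene Gm14586 and Pgk1 at 0.45. Between members, r was 0.72 for H2afx with H2afv, 0.70 for H2afx with H2afz, 0.55 for H2afz with H2afv, 0.32 for H3f3a with H3f3b and -0.34 for H2afy with H3f3b.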

How the data were processed

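The authors deposited molecule counts (UMIs) per gene and well, not normalized, for 16 MARS-seq libraries of 384 wells, with a well table giving batch and cells per well. The build, mm10, and the tool bcl2fastq 2.15.0.4 are named per the submitters' processing notes. Aligner, counter, annotation and strandedness: not given in the sources used here. Library totals were 521435 to 822534 UMIs, and 92 spike-in entries were left out. The well table lists 0 or 1 sorted cell per well, and doublets were not called.

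The members, gene lists, gates and tests were chosen with earlier results of these data known. UMIs were summed per library and class (at least 5 cells) and tested with edgeR 4.0.16 in R 4.3.3 by glmQLFTest (TMM scaling, low counts removed by filterByExpr, library as block). Both sums of a pair come from the same plate. Genes of the gates were not tested, and p-values were adjusted by Benjamini-Hochberg over all other genes tested, at 0.05. Intervals of fold changes are normal 95% intervals from the SE. Scripts were tested on simulated data. Pair shares used scipy 1.17.1 with 100000 sign flips over libraries with at least 10 UMIs of the pair. The batch comparison, G2M-high against G1S-high and lymphoid-gated against granule-gated were added after the data were seen. Named genes are all members, up to 3 called genes of largest fold change per context list and comparison, and the 5 genes most like each member. Alternatives were DESeq2 1.42.0, no filter, no block, thinning, each batch alone, leaving out each library, a mitochondrial maximum of 15% and other gates.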

Additional observations from a re-analysis of the deposited data

How the results depend on the processing

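No value of a member changed sign across a call under any alternative run. Leaving out each library in turn kept 736 of 742 single values on their side of the threshold, and the other 6 were H3f3b in G1S-high against cycle-low cells. Over those runs 4 members were called in G2M-high and in cycle-histone-high against cycle-low cells, 2 to 3 in G1S-high cells, 1 in each lineage comparison and 4 in G2M-high against G1S-high cells. Of 432 single values under the other settings, 411 kept their side, 20 lost a call and 1 gained it. The gain was H2afv in G1S-high cells, at 0.33 (log2; edgeR adjusted p = 0.0294) when cells high for several lists were kept.

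In SB343 alone the members called in G1S-high against cycle-low cells were 1 instead of 3. After thinning, those called in cycle-histone-high cells were 2 instead of 4, with fewer genes tested (400 against 990). H2afx and H2afv did not pass the filter there and were not tested, while H2afz and H3f3b were still called. In lymphoid-gated against granule-gated cells, 0 members instead of 1 were called with no filter (adjusted p = 0.988), without the replicate block (0.0887), after thinning, with at least 3 list genes, in cells high for no cycle list and in each batch alone, and the log2 fold change of H2afy was 0.14 to 0.25. There the genes of any kind with an unadjusted p under 0.05 were 39 to 561, and the cause was not tested. Averaging CPM per cell gave medians of 204 for H2afx and 1931 for H2afy. After thinning, the differences in share were 15.2 and 8.44 percentage points for H2afz in G1S-high and cycle-histone-high cells, and 5.17 and 3.78 for H3f3b in G2M-high and cycle-histone-high cells, none called (permutation adjusted p of 0.0861 to 0.406).

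Without the replicate block, the pairing by library left every count of members called within 1.5 times, apart from that of lymphoid-gated against granule-gated cells, and H3f3b in G2M-high cells had 0.32 (log2; edgeR adjusted p = 0.0562). Over all genes, 124 instead of 261 were called in G2M-high, 297 instead of 475 in G1S-high, 214 instead of 348 in cycle-histone-high, 25 instead of 58 in granule-gated, 25 instead of 57 in lymphoid-gated and 27 instead of 52 in megery-gated comparisons. With no filter the median log2 fold change of all genes was -0.20 in cycle-histone-high and -0.27 in megery-gated comparisons, and with DESeq2 it was 0.12, -0.14, -0.13 and 0.31 in the cycle-histone-high, G1S-high, granule-gated and megery-gated ones. Median depths of 1146 to 1993 UMIs per cell limit H2afx and H2afv most, which were seen in 27.1% and 36.6% of cells.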
